A study of Mus musculus with 6 samples.

Results

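The 39 protein-coding genes of the 4 mouse Hox clusters were followed in chromatin maps of primordial germ cell-like cells (PGCLCs), which are cultured mouse cells that resemble the embryonic founders of eggs and sperm. Chromatin immunoprecipitation and sequencing (ChIP-seq) was done at day 2 of culture on 2 samples with an antibody to H3K4me3, 2 with an antibody to an HA tag and 2 of input DNA. H3K4me3 is histone H3 trimethylated at lysine 4, a mark of the chromatin around gene starts. All 6 samples were labelled strain 129Sv/J and untreated, and the series' design text gives an HA tag at the C terminus of Tex10 in the cells, with no untagged group. The values come from 1 interval list per antibody, in which the samples of an antibody are not kept apart. There is therefore no replicate value, no height for an interval, no known depth and no test between samples.

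Members were all protein-coding genes of the GENCODE M21 annotation (build GRCm38) whose symbol is Hoxa, Hoxb, Hoxc or Hoxd followed by a number, which gave 39 of 21853 protein-coding genes. The Hoxa cluster on chromosome 6 holds 11 of them, the Hoxb cluster on chromosome 11 holds 10, and the Hoxc cluster on chromosome 15 and the Hoxd cluster on chromosome 2 hold 9 each. A gene was scored as marked if an interval came within 1 kb of any start site of its coding transcripts. Marker genes were scored in the labelled cells, and 8 of 10 germ cell genes had H3K4me3 (without it were Dppa3 and Nanos3). The mark was also at 4 of 4 genes of the formative epiblast, 1 of 4 genes of later germ cells (Sycp3) and 0 of 10 genes of somatic tissues. The somatic genes were poor in CpG (median ratio of observed to expected 0.257), and genes not rich in CpG, as defined below, had the mark at 31.5%. With epiblast genes marked as well, these counts do not establish the cell type. A mark at a start site does not show that the gene is transcribed, and RNA was not analysed here.

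Hox genes encode homeodomain transcription factors that give cells their position along the head-to-tail axis of the embryo. Genes with the same number in different clusters are paralogues. Within a cluster, low numbers lie at the end that is switched on first and furthest to the head, and high numbers at the end that is switched on last and furthest to the tail. In pluripotent cells the clusters are a textbook case of bivalent chromatin, in which H3K4me3 and the Polycomb mark H3K27me3 lie over silent, CpG-rich developmental genes. H3K27me3 was not analysed here. Tex10 is a nuclear protein known in mouse embryonic stem cells as a partner of Sox2 at enhancers.

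Promoter windows of 300 bases, from 250 before to 50 after a RefSeq start (GRCm38.p6), were matched by symbol for 22 of the 39 genes. These lie mostly in the Hoxa and Hoxd clusters, with only Hoxb1, Hoxb4, Hoxb8 and Hoxc4 from the others. The windows of a marked pair, Hoxd13 and Hoxb4, and of an unmarked pair, Hoxa11 and Hoxb8, are given because the presence of the mark divides them while all 4 hold many CpG dinucleotides, written in capitals. Hoxd13 lies at chr2:74667975-74668274 on the plus strand, Hoxb4 at chr11:96318017-96318316 on the plus strand, Hoxa11 at chr6:52245761-52246060 on the minus strand and Hoxb8 at chr11:96281655-96281954 on the plus strand. All are written 5′ to 3′ on the strand of the gene.
Hoxd13: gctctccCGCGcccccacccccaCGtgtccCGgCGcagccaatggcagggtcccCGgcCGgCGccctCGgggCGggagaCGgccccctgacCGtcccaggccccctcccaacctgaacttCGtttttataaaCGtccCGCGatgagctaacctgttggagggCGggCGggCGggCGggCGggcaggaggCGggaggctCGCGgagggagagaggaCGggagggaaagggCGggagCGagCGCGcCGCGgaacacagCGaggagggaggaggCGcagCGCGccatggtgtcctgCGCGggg
Hoxb4: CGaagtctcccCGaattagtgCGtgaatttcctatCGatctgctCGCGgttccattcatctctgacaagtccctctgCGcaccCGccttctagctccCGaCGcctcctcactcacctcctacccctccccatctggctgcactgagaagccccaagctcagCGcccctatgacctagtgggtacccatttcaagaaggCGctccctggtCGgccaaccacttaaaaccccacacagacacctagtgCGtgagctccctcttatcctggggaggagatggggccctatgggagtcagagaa
Hoxa11: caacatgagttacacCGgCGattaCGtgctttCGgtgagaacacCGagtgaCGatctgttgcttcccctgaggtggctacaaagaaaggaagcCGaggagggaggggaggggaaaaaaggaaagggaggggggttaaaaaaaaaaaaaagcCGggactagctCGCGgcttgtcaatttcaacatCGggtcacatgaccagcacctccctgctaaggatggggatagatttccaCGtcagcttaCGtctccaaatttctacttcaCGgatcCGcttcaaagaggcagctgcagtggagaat
Hoxb8: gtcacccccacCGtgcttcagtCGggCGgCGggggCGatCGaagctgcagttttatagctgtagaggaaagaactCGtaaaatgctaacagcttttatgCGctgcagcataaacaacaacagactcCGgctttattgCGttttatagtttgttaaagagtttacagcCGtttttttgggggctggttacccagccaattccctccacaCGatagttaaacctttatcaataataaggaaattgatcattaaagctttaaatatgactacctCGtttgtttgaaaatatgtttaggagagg
The Hoxd13 window holds 37 CpG and 167 bp of it lie under an H3K4me3 interval, and the Hoxb4 window holds 14 CpG with 112 bp under an interval. The Hoxa11 window holds 15 CpG and the Hoxb8 window 13, with 0 bp under an interval in each. Over the windows of the 17 marked Hox genes the median was 14 CpG, and over those of the 5 unmarked ones 15. Over all 32851 windows that RefSeq gave it was 7 CpG. Marked refers here to the gene: only 10 of the 17 had a window partly under an interval. The windows of Hoxa9 and Hoxd4, for example, hold 4 CpG each with 0 bp under one. The medians thus do not compare covered with uncovered windows.

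H3K4me3 was present at 29 of the 39 Hox genes (74.4%, Wilson 95% interval 58.9 to 85.4%), against 60.9% of all protein-coding genes. The 10 Hox genes without it were Hoxa2, Hoxa3 and Hoxa11, Hoxb2, Hoxb3, Hoxb5 and Hoxb8, Hoxc6 and Hoxc8, and Hoxd10. Intervals and limits here cover the counting of genes only, and neighbouring genes of a cluster are not independent. The side of the background on which the Hox genes fell depended on how strictly a gene was scored. Where an interval had to contain a start site, 17 of 39 Hox genes were marked (43.6%, against 52.3% of all genes). With only the intervals wider than the list's median of 711 bp, 11 Hox genes were marked (28.2%, against 49.8%).

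The unmarked genes lay in clusters dense in H3K4me3 intervals, with 10.9 (Hoxb) to 20.9 (Hoxa) per 100 kb. The figure was 1.06 over the 21 assembled chromosomes, a background not matched for gene density. The nearest H3K4me3 interval of the unmarked genes lay between 1174 bp (Hoxb2) and 8478 bp (Hoxc8) from a coding start site. In 5 of the 10, an interval was centred inside the gene itself. Hoxa3, whose long transcripts also span Hoxa4 to Hoxa6, held intervals of 709 and 522 bp in its coding sequence, and Hoxb2 and Hoxb3 held intervals of 308 and 578 bp in theirs. Hoxb8 carried 237 bp of the mark in its untranslated sequence, and Hoxc6 carried 655 bp in an intron, at the start of another of its transcripts. The other 5 genes, Hoxa2, Hoxa11, Hoxb5, Hoxc8 and Hoxd10, held no interval. Neither these distances nor this count is given for all unmarked genes, so they are not read as particular to Hox genes.

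CpG content separated marked from unmarked genes over the genome and much less so among Hox genes. The ratio of observed to expected CpG within 500 bp of the 5′-most coding start site had a median of 0.73 over all marked genes and 0.19 over all unmarked genes. For marked Hox genes the median was 0.69 (n = 29) and for unmarked Hox genes 0.66 (n = 10), with ranges of 0.26 to 1.00 and 0.33 to 0.88 that overlap. Genes were called CpG-rich where this ratio was above 0.6 and GC content above 50%. Of the 24 CpG-rich Hox genes, 18 were marked (75%, interval 55.1 to 88%), while 96.8% of all CpG-rich genes were. The 6 CpG-rich Hox genes without the mark were Hoxa2, Hoxa3, Hoxa11, Hoxb5, Hoxc8 and Hoxd10, and Hoxb5 had the highest ratio among them, 0.88. Of the 15 other Hox genes, 11 were marked (73.3%, interval 48 to 89.1%), against 31.5% of all other genes. In 4 of these 11, Hoxa9, Hoxb6, Hoxc4 and Hoxd4, the mark lay at a start site further along the gene than the one where CpG was counted.

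The H3K4me3 intervals at Hox genes were narrow. The widest interval at a marked Hox gene had a median of 546 bp (95% interval of the median 327 to 976, n = 29), against 1342 bp (1323 to 1360) at all 13306 marked genes. It was under 500 bp at 12 of 29 Hox genes (41.4%), against 9.54% of all marked genes. Joining intervals less than 1 kb apart raised the Hox median to 947 bp. A joined median is not given for all marked genes, so 947 bp is not to be set against 1342 bp. How the samples' intervals were combined is not known, and its part in the widths was not tested.

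**Figure D1:**
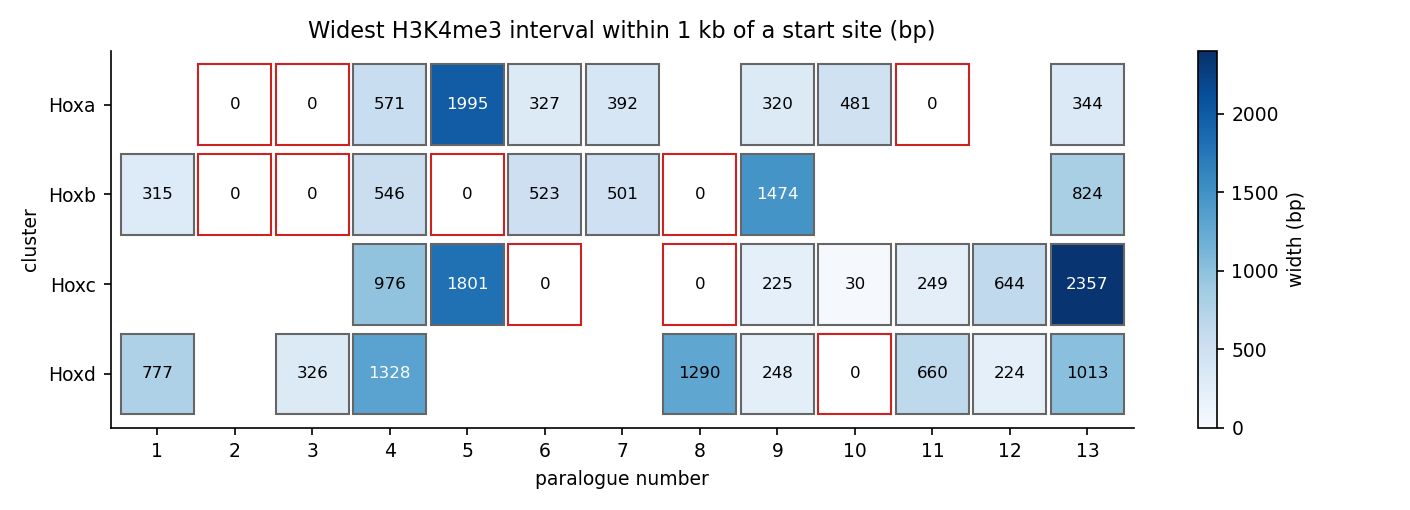
Width in bp of the widest H3K4me3 interval within 1 kb of a coding start site, for Hox genes by cluster (rows) and paralogue number (columns). Red boxes with 0 are the 10 genes without an interval, empty places have no gene or are not plotted, and the darkest box is Hoxc13 at 2357 bp.

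The widest mark among the Hox genes covered the start of Hoxc13 (2357 bp, chr15:102920135-102922491), a gene of the tail end of its cluster known for its part in hair and nail. Hoxa5, a gene needed for lung and neck skeleton, had 1995 bp (chr6:52202715-52204709). Hoxc5 had 1801 bp, Hoxb9 1474 bp, Hoxd4 1328 bp, Hoxd8 1290 bp and Hoxd13, a gene of the digits, 1013 bp. These wide marks lay in the middle of the clusters as well as at their tail end. At the other end were Hoxd9 with 248 bp, Hoxc9 with 225 bp, Hoxd12 with 224 bp and Hoxc10 with a single interval of 30 bp. These widths count only intervals within 1 kb of a coding start.

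The intervals of the neighbours Hoxc9 and Hoxc10 are shown with their CpG in capitals to give the scale of narrow calls. The Hoxc9 interval (chr15:102975862-102976086, plus strand, 353 bp upstream of the start and in an intron of Hoxc5) holds 10 CpG. The Hoxc10 interval (chr15:102966910-102966939, plus strand, in the coding sequence 114 bp after the start) holds 4.
Hoxc9 interval: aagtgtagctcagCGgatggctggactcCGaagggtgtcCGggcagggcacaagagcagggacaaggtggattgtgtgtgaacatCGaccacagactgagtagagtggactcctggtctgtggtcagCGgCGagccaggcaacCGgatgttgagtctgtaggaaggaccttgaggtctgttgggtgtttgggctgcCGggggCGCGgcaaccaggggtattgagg
Hoxc10 interval: CGcCGggaggaggagagCGctataacCGta
A 30 bp interval is shorter than the DNA around 1 nucleosome. Leaving out intervals under 50 bp took the mark from Hoxc10 alone, so that 28 Hox genes kept it. Hoxd9 also had a second interval of 6 bp beside its 248 bp one.

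At many marked Hox genes the interval lay beside the start site and not over it. An interval held a coding start site at 17 of 29 marked Hox genes (58.6%, interval 40.7 to 74.5%), against 85.9% of all marked genes. At the other 12 the gap from the nearest interval to a start site ran from 60 bp (Hoxb7) to 540 bp (Hoxc11), and the interval lay downstream, in the transcribed part, at 10 of them. It lay upstream at Hoxa6 and Hoxc9. The like count is not given for all marked genes, but their mark also leaned downstream. It covered 49.1% of them at 1 kb downstream of the 5′-most coding start and 16.7% at 1 kb upstream. Hoxa13, for example, had its only interval of 344 bp (chr6:52259949-52260292) in its coding sequence, 510 bp from the nearest start site. The share of genes with 2 or more separate intervals was 8 of 29 Hox genes (27.6%, interval 14.7 to 45.7%), against 20.3% of all marked genes.

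Aligned on the 5′-most coding start site, H3K4me3 covered the start itself at 14 of 29 marked Hox genes (48.3%) and reached its highest share, 55.2%, at both 150 and 300 bp downstream. For all marked genes the share was 73.5% at the start and highest, 85.1%, at 250 bp downstream. The mark covered a median of 377 bp of the sequence within 1 kb of that start at marked Hox genes, against 1142 bp at all marked genes. The 4 genes Hoxa9, Hoxb6, Hoxc4 and Hoxd4, marked at another start site, count as 0 bp here.

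**Figure D2:**
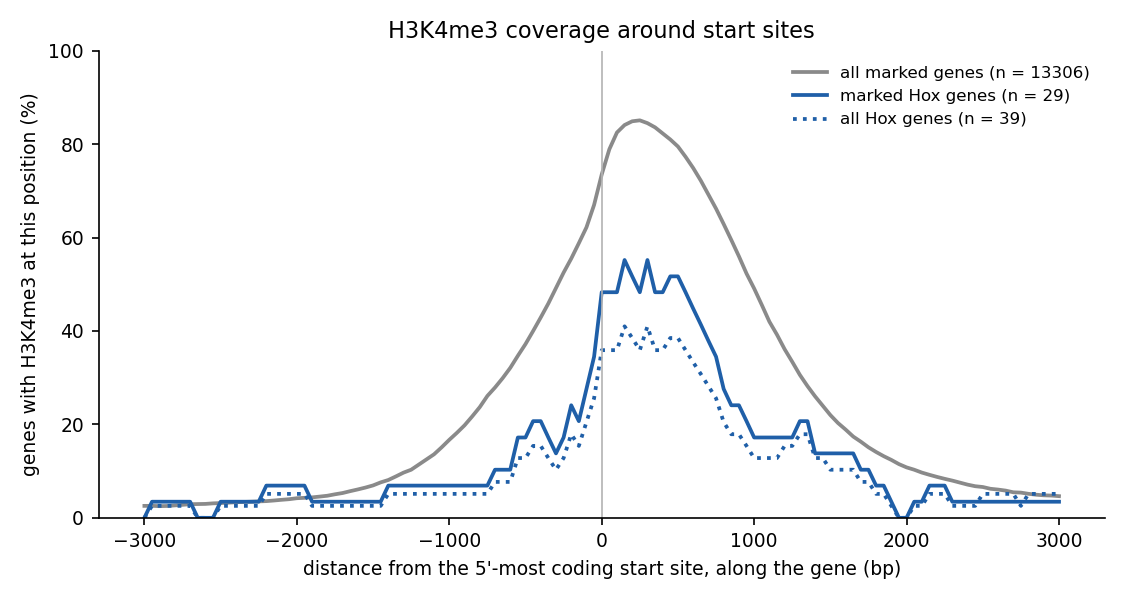
Share of genes (%) whose DNA lies in an H3K4me3 interval, by distance in bp from the 5′-most coding start site, with downstream to the right. The Hox curves lie under that of all marked genes around the start, at 48.3% for the 29 marked Hox genes against 73.5%.

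By paralogue number, H3K4me3 was at all 4 genes of groups 4, 9 and 13, and both of groups 7 and 12. It was at 0 of 2 genes of group 2 (Hoxa2, a gene of the hindbrain and second pharyngeal arch, and Hoxb2) and at 1 of 3 of group 3 (Hoxd3) and of group 8 (Hoxd8). Groups 5, 6, 10 and 11 were marked at 2 of 3 genes each. Taken by position, 4 of 8 genes with numbers 1 to 3 were marked (50%, interval 21.5 to 78.5%), 11 of 15 with numbers 4 to 8 (73.3%, 48 to 89.1%) and 14 of 16 with numbers 9 to 13 (87.5%, 64 to 96.5%). These intervals overlap, so the order of the 3 shares is not set apart from counting error. Widths did not follow that order: the median of the widest interval was 551.5 bp, 571 bp and 412.5 bp in the 3 positions.

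The 4 clusters together span 492 kb, of which 7.87% lay under H3K4me3, against 1.02% of the 21 assembled chromosomes. Of the 100 kb stretches of those chromosomes, only 44.7% held any interval. The background was not matched for gene density, so this excess is not read as particular to Hox genes. The 4 clusters held 68 intervals. Of these, 38 were at a coding Hox start, and none was at the coding starts of a pair of Hox genes. Those of Hoxd3 and Hoxc10 were also at starts of other transcripts, of Hoxd4 and Hoxc5. Of the other 30, 4 were at another Hox transcript's start, 11 at the start of a non-coding gene, and 16 at no annotated start. One interval, at a Hoxa9 transcript and Mir196b, counts in both of the first classes. The centre of 25 intervals lay in coding sequence, of 10 in untranslated sequence, of 6 in non-coding exons, of 15 in introns and of 12 between Hox genes, where non-coding genes such as Gm53 can still span it.

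**Figure D3:**
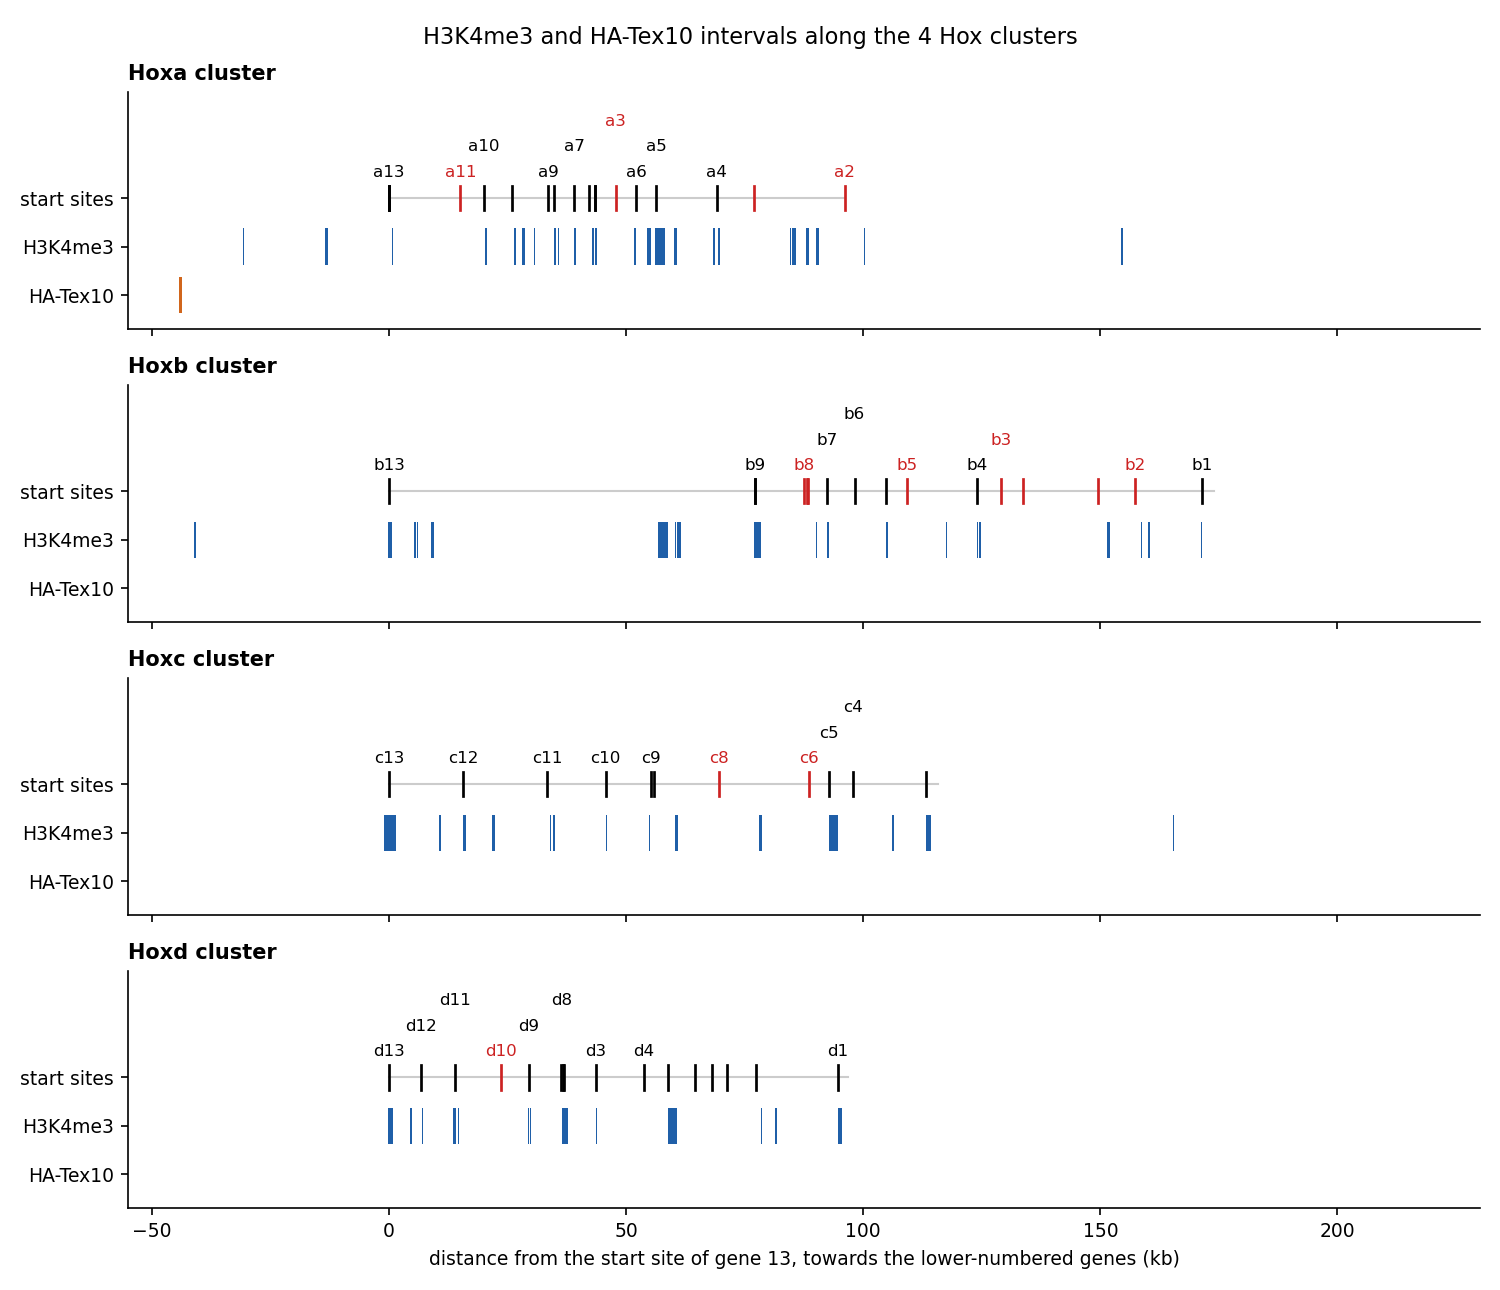
Coding start sites (ticks), H3K4me3 intervals (blue) and HA-Tex10 intervals (orange) along each Hox cluster and 50 kb to each side, in kb from the 5′-most start of the gene numbered 13, without the loci not reported here. Ticks and names in red are the 10 genes without H3K4me3 within 1 kb of a start, each name stands at the 5′-most start, intervals are drawn at a smallest width so that they can be seen, and the only HA-Tex10 interval is 44 kb beyond the Hoxa cluster.

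The Hoxa cluster (chromosome 6, 105.3 kb) was the most densely marked, with 22 intervals (20.9 per 100 kb) over 12.4% of its length and 8 of 11 genes marked. The 22 intervals ran from 133 to 1995 bp with a median of 390.5 bp, so the cluster carried many short stretches. Hoxa7 had 3 intervals of 334, 392 and 377 bp at its start sites, and Hoxa4, Hoxa5, Hoxa9 and Hoxa10 had 2 each. Towards the high-numbered end, Hoxa11, a gene of the limb and the uterus, had none, and its nearest interval was 5238 bp away.

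The Hoxb cluster (chr11:96194316-96368256, 173.9 kb) was the least covered, with 19 intervals (10.9 per 100 kb) over 5.87% and 6 of 10 genes marked. Its 4 unmarked genes were Hoxb2, Hoxb3, Hoxb5 and Hoxb8. Hoxb1, a hindbrain gene, had a single interval of 315 bp over its start. The widest interval of the cluster, 2125 bp (chr11:96251063-96253187), was not at a Hox gene but at the start of the long non-coding RNA gene Gm53, in the wide gap between Hoxb9 and Hoxb13.

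The Hoxc cluster (chr15:102921103-103036852, 115.8 kb) had 13 intervals (11.2 per 100 kb) over 7.19% and 7 of 9 genes marked. Its mark near coding starts was unevenly spread. Hoxc13 and Hoxc5 had 2357 and 1801 bp, while the neighbours Hoxc9, Hoxc10 and Hoxc11 had 225, 30 and 249 bp. Hoxc8 had none within 8478 bp. Further than 1 kb from a coding start, Hoxc9 also held 582 bp in its coding sequence and Hoxc11 510 bp in an intron.

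The Hoxd cluster (chr2:74668310-74765142, 96.83 kb) had 14 intervals (14.5 per 100 kb) over 7.34% and 8 of 9 genes marked, with Hoxd10, a gene of limb motor neurons, as the exception. At Hoxd11 a 660 bp interval covered the start and a 112 bp interval lay behind it. Hoxd3 and Hoxd4 overlap each other, and their intervals of 326 and 1328 bp lie at different coding starts. The 326 bp interval is also at the start of another Hoxd4 transcript, so it cannot be given to Hoxd3 alone.

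Of the 43 non-coding genes inside the clusters, 15 had H3K4me3 within 1 kb of a start, and for 8 of them the interval was not also at a coding Hox start. The share over all non-coding genes is not given, so this count is not read as particular to those of the clusters. Haglr, a non-coding RNA read in the other direction from Hoxd1, shared the 777 bp interval of that gene. Haglr also had a 416 bp interval at a start with no coding Hox start within 1 kb. Hoxaas3 had a 925 bp interval and Hoxb3os one of 451 bp. Hotair, a non-coding RNA of the Hoxc cluster, had none, nor did Hoxa11os, Hoxb5os and Hoxaas2. Without values per strand, an interval between head-to-head genes cannot be given to one of them.

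The clusters also hold microRNA genes of known families, and 2 of the 6 that RefSeq lists there carried the mark at their hairpin. Their mature forms are shown with the seed, bases 2 to 8 from the 5′ end, in capitals, because the families run across the clusters while the mark does not. The miR-10 pair shares the seed ACCCUGU and lies next to Hoxb4 and Hoxd4, and the miR-196 family shares AGGUAGU and is known to target Hoxb8.
miR-10a-5p (Hoxb cluster): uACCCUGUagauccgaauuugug
miR-10b-5p (Hoxd cluster): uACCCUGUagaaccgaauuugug
miR-196a-5p (Hoxb and Hoxc clusters): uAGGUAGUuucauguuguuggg
miR-196b-5p (Hoxa cluster): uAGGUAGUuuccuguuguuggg
miR-615-3p (Hoxc cluster): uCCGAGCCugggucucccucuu
Mir196b had a 313 bp interval at its hairpin (chr6:52230040-52230352), while its relatives of the same seed, Mir196a-1 and Mir196a-2, were 6152 and 2512 bp from the nearest interval. Mir615 lay under the 1801 bp interval of Hoxc5. Mir10a and Mir10b were just outside the 1 kb limit, at 1040 and 1168 bp. Because a microRNA can be cut from a longer transcript, the hairpin's position need not be its start. No share over all microRNA genes is given, so 2 of 6 is not read as particular to these genes.

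Short motifs were looked for on both strands of the promoter windows, as a description of their letters. The windows were mostly of Hoxa and Hoxd genes, and the background of all windows was not matched to them for CpG content. CCAAT was in the windows of 15 of 22 Hox genes (68.2%), against 37.4% of all windows. The GC box GGGCGG was in those of 10 Hox genes (45.5%, against 35.7%), of which 9 were among the 17 marked and 1 among the 5 unmarked genes. TATAAA was in those of 4 (18.2%, against 13.6%), the E-box CACGTG in those of 5 (22.7%, against 7.15%), and the octamer ATGCAAAT in 0 (against 1.74%). TGATNNAT, the core of the joint site of Hox proteins and their Pbx partners, was found at Hoxb1, Hoxd11, Hoxa2 and Hoxb8 (18.2%, against 8.85%). Hoxa10 and Hoxd11 have a pair of windows in the table and were counted once, if either held the motif.

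HA-Tex10 was detected at none of the 39 Hox genes. The share over all protein-coding genes was 8.66%, and over genes with H3K4me3 it was 13.9%. By the limit of 3 counts, 0 of 39 allows a share of up to 7.69% and 0 of 29 marked Hox genes one of up to 10.3%, from counting alone. The upper Wilson 95% limit for 0 of 39 is 8.97%. Of the 2 limits for 0 of 39, 7.69% lies below the 8.66% of all genes and 8.97% above it. The count is therefore not clearly set apart from that share. For the marked Hox genes, 10.3% lies below the 13.9% of marked genes. These limits treat genes as independent, which neighbours in a cluster are not. No HA-Tex10 interval lay anywhere in the 4 clusters. At an unknown depth this means that none was listed, not that Tex10 was absent. The share of marked genes with HA-Tex10 also differed between the chromosomes of the clusters, at 9.49% on chromosome 6, 11.5% on chromosome 2 and 14.6% on both chromosomes 11 and 15.

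Over all marked genes, HA-Tex10 became more frequent with the width of the H3K4me3 interval, from 4.33% of genes under 500 bp to 7.28% from 500 to under 1000 bp, 14.4% from 1000 to under 2000 bp and 23.4% at 2000 bp or more. The marked Hox genes numbered 12, 9, 7 and 1 in these classes, with HA-Tex10 at 0 in each. Most Hox genes thus stood in the classes where HA-Tex10 was rare for any gene. The part of interval width in the count of 0 was not tested.

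**Figure D4:**
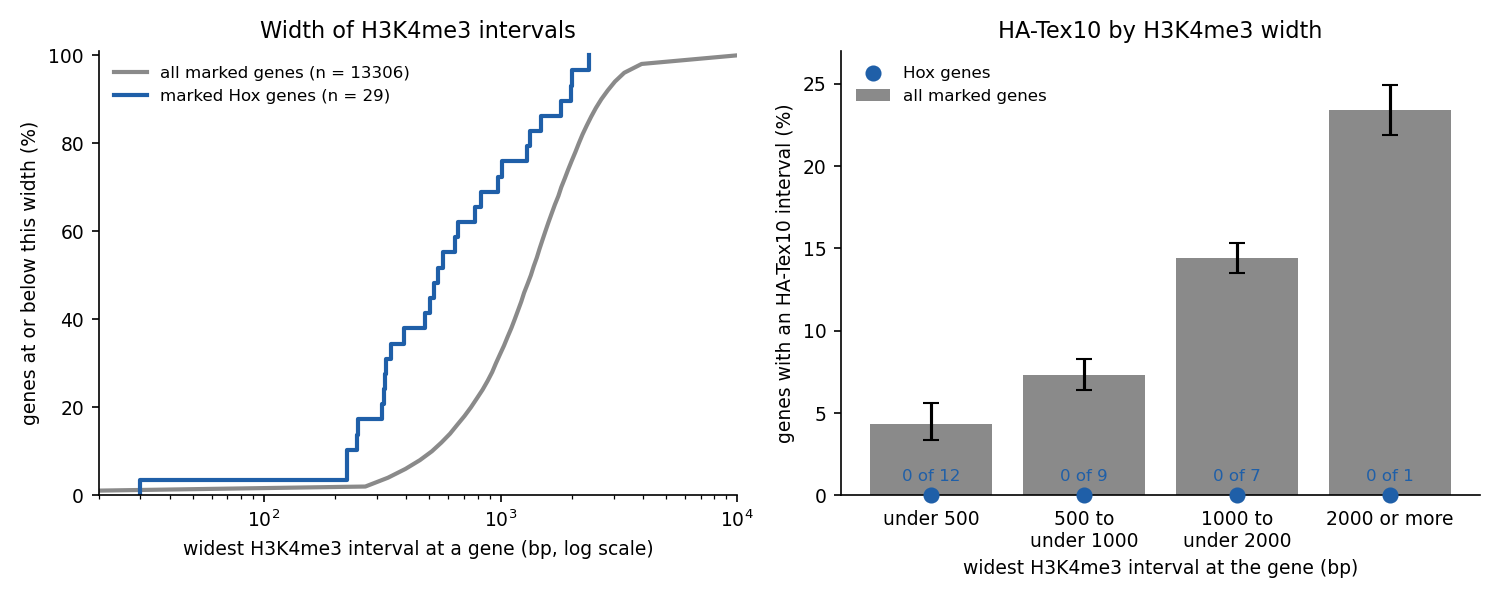
Left, cumulative share of genes (%) by the width of their widest H3K4me3 interval (bp, log scale), with the 29 marked Hox genes to the left of all 13306 marked genes. Right, share of marked genes with HA-Tex10 (%) by that width, with Wilson 95% bars, rising from 4.33% to 23.4%, and Hox genes (dots) at 0 in all 4 classes.

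The nearest HA-Tex10 interval lay a median of 224.9 kb from the 5′-most start of a Hox gene (44 to 954 kb, n = 39), against 168.3 kb for all protein-coding genes and 116.2 kb for marked ones. Genes of a cluster share the same neighbour, so the 39 distances rest on few intervals. For the Hoxa cluster it was 44 kb away (chr6:52304831-52305071, 241 bp), outside any gene and without H3K4me3. All of the 32-base words in that interval occurred more than once in the genome. Whether its reads can be placed with certainty was not tested. It was not an odd case: in 1681 of the 4238 HA-Tex10 intervals on the 21 chromosomes, more than 50% of the words were repeated. For the Hoxb cluster the nearest interval was at the start of Atp5g1, a subunit of ATP synthase, 118 kb away. For the Hoxc cluster it was at Cbx5, which encodes the heterochromatin protein HP1 alpha, 179 kb away. For the Hoxd cluster it was at Hnrnpa3, an RNA-binding protein, 894 kb away. These 3 met an H3K4me3 interval and held no repeated words. Around the Hox starts only 1.18% of the words were repeated (highest 6.95%, Hoxd3).

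The genes that border the clusters were scored in the same way. Skap2 (1595 bp), Mtx2 (1073 bp), Evx1 (940 bp), Calcoco1 (883 bp) and Smug1 (554 bp) had H3K4me3, and Ttll6, Skap1 and Evx2 did not. Evx1 and Evx2 are homeobox genes next to Hoxa13 and Hoxd13. HA-Tex10 was at none of these 8 genes, and its nearest interval was 8.43 kb from Evx1. Its share over all protein-coding genes was 8.66%, and 8 genes are too few to be set apart from that.

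Genes of the Hox pathway outside the clusters were taken from 4 lists. Their H3K4me3 counts stand beside a share of 60.9% over all protein-coding genes. Of the TALE cofactors, which bind DNA together with Hox proteins, 8 of 9 were marked (not Meis3), with a median widest interval of 1986 bp. Among them, Meis2 had 5833 bp. Of the upstream regulators, 14 of 17 were marked, with a median of 805.5 bp, and the retinoic acid receptor genes Rarg and Rara had 10202 and 6639 bp. Of the genes for the enzymes that break down retinoic acid, Cyp26a1 had 1275 bp and Cyp26b1 and Cyp26c1 had no interval, and the signal gene Wnt3a had none. The Cdx genes, which switch on Hox genes in the tail end of the embryo, had narrow ones of 546 (Cdx1), 421 (Cdx2) and 194 bp (Cdx4).

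The ParaHox and other Hox-like homeobox genes were marked at 7 of 10 (not Evx2, Meox1 and Meox2), with a median of 883 bp, and other homeobox genes at 25 of 29 (not Six3, Emx1, Emx2 and Lmx1b), with a median of 745 bp. In the latter, 9 of 25 marked genes were under 500 bp, as were 12 of 29 marked Hox genes. Otx2, an epiblast gene at this stage, had 7855 bp. Across the 4 lists HA-Tex10 was at 1 gene, the homeobox gene Msx1 (chr5:37824355-37824602, 248 bp), against 8.66% of all protein-coding genes. By the limit of 3 counts, a count of 0 allows up to 33.3% for the TALE cofactors and 17.6% for the upstream regulators. For the ParaHox and other Hox-like genes it allows up to 30%, so these counts are not set apart from that share. The Wilson intervals of the 4 H3K4me3 shares overlap that of the Hox genes.

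**Figure D5:**
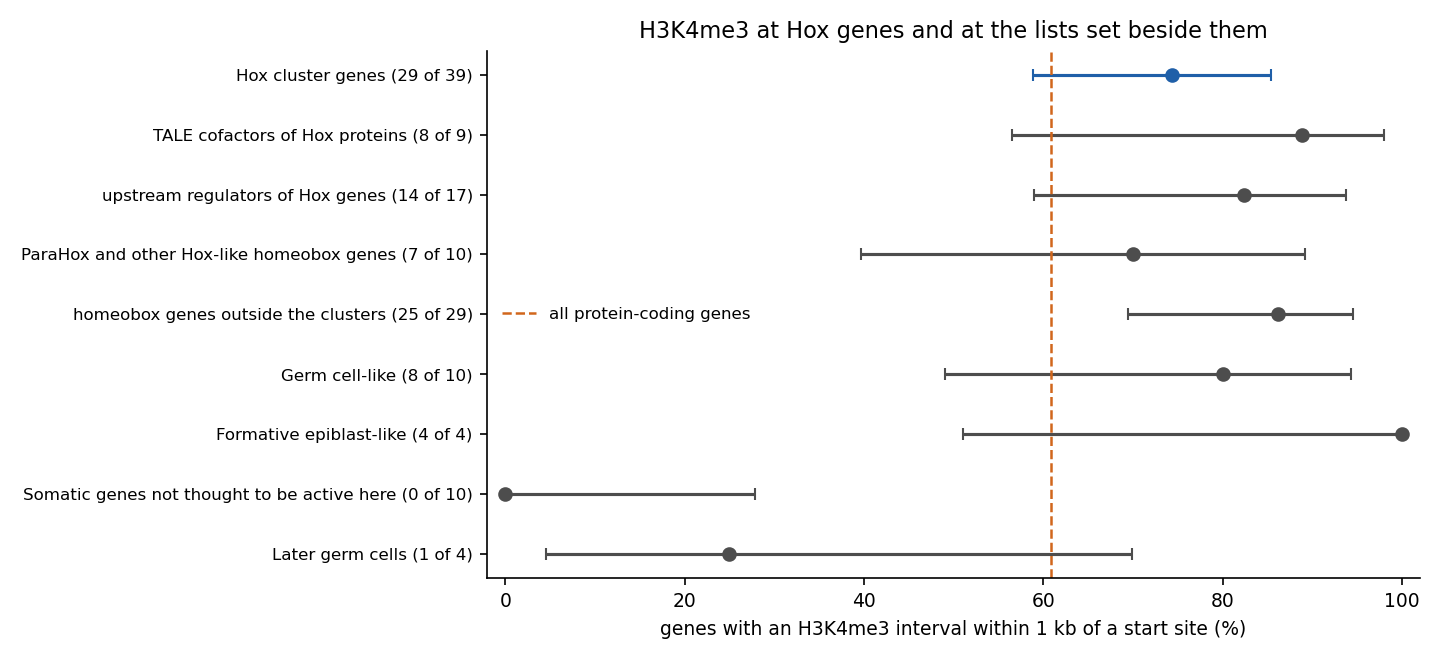
Share of genes (%) with an H3K4me3 interval within 1 kb of a coding start site, with Wilson 95% bars, for the Hox genes (blue) and the other lists, and with the share of all protein-coding genes, 60.9%, as a dashed line. The Hox genes stand at 74.4%, and the somatic genes at 0.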

How the data were processed

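Day 2 PGCLCs were profiled by ChIP-seq in 6 samples (2 H3K4me3, 2 HA-Tex10, 2 input). The authors deposited 3 lists of intervals, which hold a chromosome, a start and an end in bp, with the score and strand columns empty. The submitters' processing notes name mm10, Bowtie2 2.3.4.3, SAMtools 1.9, MACS2 2.1.2 and HOMER, without their roles. Thresholds, the use of input and the combining of samples are not given in the sources used here. The H3K4me3 list holds 29072 intervals and the HA-Tex10 list 4331. The third list holds 2990 distinct HA-Tex10 intervals that meet H3K4me3 and was used only as an alternative. Depth is unknown.

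Intervals were scored against GENCODE M21 (GRCm38) coding start sites within 1 kb, with any overlap of at least 1 bp, and sequences were read from RefSeq GRCm38.p6. Python 3.11.15, NumPy 2.4.6 and SciPy 1.17.1 were used. Shares have Wilson 95% intervals, and a count of 0 has an upper limit of 3 counts. No test was run across genes. Functions were tested on planted intervals. Named genes were all members, with the members of the 4 lists by size or absence of their interval. Some single-gene results are not reported here. The members and lists were chosen with earlier results of these data known.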

Additional observations from a re-analysis of the deposited data

How the results depend on the processing

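The count of 29 marked Hox genes fell to 17 where an interval had to contain a start site, to 11 with intervals wider than the median, and to 14 where it had to contain the 5′-most start (an alternative chosen after seeing the data, as was leaving out intervals under 50 bp). The other alternatives gave 25 to 32 genes: Hoxa13 and Hoxc11 were lost within 500 bp, Hoxb2, Hoxb3 and Hoxb8 were gained within 2.5 kb, and Hoxc6 was gained with the starts of every transcript. HA-Tex10 was at 0 Hox genes under each of its 8 alternatives, which could not have changed it: most only remove intervals, and the nearest interval is 44 kb from a Hox gene, beyond the widest window of 2.5 kb. The share of a cluster under H3K4me3 was given with the span widened by 10 kb, from first to last start, with intervals wider than the median, and with gaps under 1 kb joined, in that order. It was 10.4, 12.2, 5.62 and 15.2% for Hoxa and 6.84, 6.55, 3.6 and 7.6% for Hoxc. It was 6.26, 6.71, 4.34 and 8.13% for Hoxd, and 5.41, 5.91, 2.96 and 6.4% for Hoxb. Stricter rules keep fewer intervals by construction. No paired analysis was possible because the interval lists carry no replicate numbers.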
